A study of Rattus norvegicus with 8 samples.

Results

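The activin, TGF-beta and BMP genes described here are Inhba, Inhbb, Fst, Acvr2a, Tgfb1, Tgfb2, Tgfb3, Tgfbr2, Bmp7 and Smad7, measured in whole rat kidney. Every probe set whose single gene symbol in the platform annotation was one of these 10 was kept, which gave 14 probe sets of 9 genes, out of 31042 probe sets and 14217 named genes on the array. Tgfbr2, which encodes the type II TGF-beta receptor, was the symbol of no probe set in the annotation used here. The genes were chosen from the differences between these same arrays, which were already known, so the differences of the 14 probe sets are given as a description, without a test of their own. The kidneys came from female Sprague-Dawley rats that were 29 weeks old. For 26 weeks both groups had been fed a formulated low-Si feed, which the Si deplete group took with low-Si water (an intake of 0.17 mg Si/kg/day) and the Si replete group with orthosilicic acid added to the water (4.1 mg Si/kg/day). Each array carried RNA of a single rat, extracted from its left kidney after grinding, and each group had 4 arrays. Rats were killed singly, 1 from each group on a day, but the labels tie no array to a cage or a day.

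Activins, TGF-betas and bone morphogenetic proteins (BMPs) are secreted dimers of one ligand family. They bind pairs of type I and type II receptor kinases, which phosphorylate Smad transcription factors, and inhibitory Smads such as Smad7 limit the signal. In the kidney, TGF-beta is best known for driving matrix production and fibrosis, Bmp7 for its role in nephron development and in the tubule epithelium, and follistatin for binding and neutralizing activin.

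The values are log2 levels made by the authors with gcRMA, so that a difference of 1 is a change of 2-fold. Levels of different probe sets cannot be ranked against each other, and levels with a mean under 4, as in 51.3% of all probe sets, are close to the bottom of the scale and are here called dim. Array medians lay between 3.80 and 3.92. Si deplete replicate 1 stood apart on the first principal component (64.0, against -25.9 to 19.2 for the other arrays). Markers of the labelled tissue were present. Proximal tubule markers, from Slc5a2 to Lrp2, had mean levels of 8.79 to 12.85, and those of the thick limb and distal tubule 10.68 to 13.50, whereas all 4 measured adrenal markers were dim.

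Among the ligands, the gene that stood out was Inhbb, the beta B subunit of activin B and inhibin B. Its probe set (1377163_at) measured, for replicates 1 to 4 in turn, log2 levels of 6.68, 6.12, 6.26 and 5.59 in the Si deplete group and 4.82, 4.81, 5.02 and 4.93 in the Si replete group. Every Si deplete kidney thus lay above every Si replete kidney, with a gap of 0.57 between the groups, and the Si deplete kidneys were more spread out (SD 0.45, n = 4) than the Si replete kidneys (SD 0.10, n = 4). The means were 6.16 and 4.90, a log2 difference of 1.27 (standard error 0.20, 95% interval 0.82 to 1.71), or 2.40-fold. Without Si deplete replicate 1, which had the highest level, the difference was 1.09. In a bulk sample, a change in the number of cells of a type and a change in RNA per cell cannot be told apart.

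Inhba, the beta A subunit of activin A and inhibin A, was dim on both of its probe sets. On the brighter one (1383486_at) the levels were 3.24, 3.42, 3.01 and 3.20 in Si deplete and 2.94, 2.86, 2.64 and 3.36 in Si replete kidneys. The groups overlapped, with Si replete replicate 4 among the highest arrays, and the difference was 0.27 (standard error 0.15). On the other (1369012_at) the difference was -0.04 (standard error 0.08), and its sign turned with an array left out (-0.07 to 0.01). These arrays therefore held little signal of Inhba in either group, while its sister subunit Inhbb was above the dim range in all 8 kidneys.

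**Figure D1:**
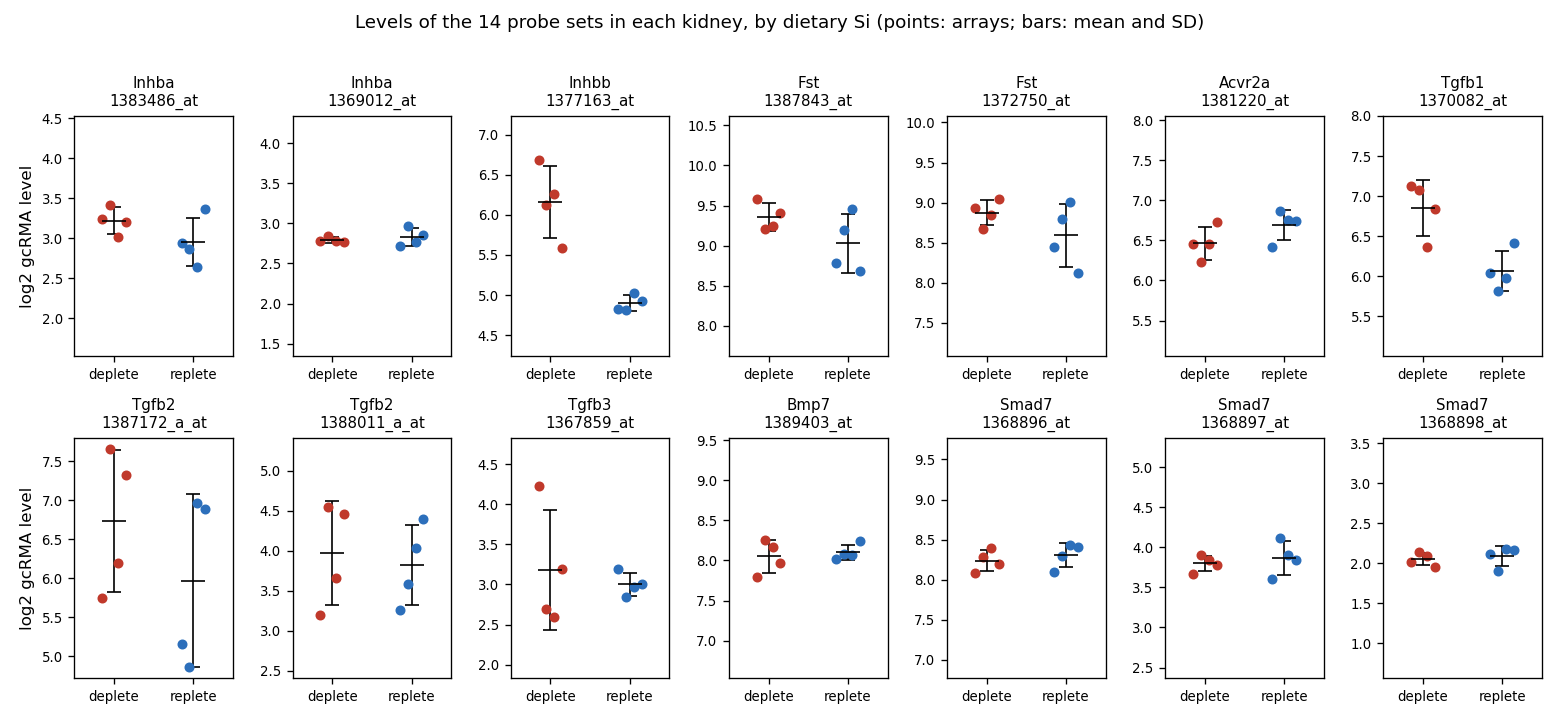
Log2 gcRMA levels of the 14 probe sets in all 8 kidneys; each point is 1 kidney, black marks give the mean ± SD per diet (n = 4), and each vertical axis has its own offset. Only Inhbb separates the groups, at 5.59 to 6.68 against 4.81 to 5.02, while Tgfb2 spreads widely within both groups.

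The sequences before the starts of these sister genes are shown because Inhbb had the largest difference of the set, Inhba was dim, and the windows are very different in base composition. They are the 250 bases upstream of the annotated start in RefSeq, assembly GRCr8, at chr13:33089374-33089623 (minus strand) for Inhbb and chr17:53804509-53804758 (minus strand) for Inhba, printed 5′ to 3′. Capitals mark GGGCGG, the core of a GC box, in Inhbb, and in Inhba the core promoter element TATAAA, each searched on both strands and with overlapping matches counted.
Inhbb: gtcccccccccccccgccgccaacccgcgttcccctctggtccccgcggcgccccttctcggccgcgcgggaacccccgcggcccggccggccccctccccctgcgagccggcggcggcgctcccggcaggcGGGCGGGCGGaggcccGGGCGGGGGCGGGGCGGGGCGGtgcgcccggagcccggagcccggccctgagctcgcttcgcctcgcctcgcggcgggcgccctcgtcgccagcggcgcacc
Inhba: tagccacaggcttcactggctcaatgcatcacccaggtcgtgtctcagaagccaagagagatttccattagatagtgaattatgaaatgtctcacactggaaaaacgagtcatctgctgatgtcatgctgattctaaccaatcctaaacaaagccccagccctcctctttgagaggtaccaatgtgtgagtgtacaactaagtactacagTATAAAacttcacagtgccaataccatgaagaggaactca

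The Inhbb window was 86.8% G or C, more than in 99.9% of 33469 windows of the same length, and held GGGCGG 6 times, some of them overlapping. The Inhba window was 43.6% G or C, with 1 TATAAA and no GGGCGG. The Smad7 window was 78% G or C, more than in 98.2% of windows, and held GGGCGG 2 times. Smad7 differed by -0.07 on its brightest probe set. A link between base composition and the differences was not tested. Windows were found for 8 of the 10 genes, Fst and Bmp7 having none in the table used. Of these 8, 3 held GGGCGG (Inhbb, Smad7 and Tgfbr2), against 30.5% of all windows, and 1 held TATAAA, against 12.9%. The letters CAGAC, a short Smad binding element, were in none of the 8, against 42.9% of all windows. These matches are a description of the letters and say nothing of which factors bind there.

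Tgfb1, the TGF-beta isoform most often linked to kidney fibrosis, had the next largest difference. Its probe set (1370082_at) had levels of 7.12, 7.08, 6.37 and 6.84 in Si deplete and 6.04, 5.82, 5.98 and 6.42 in Si replete kidneys. The groups met at 1 point only, where Si deplete replicate 3 lay 0.05 below Si replete replicate 4. The difference was 0.79 (standard error 0.18, 95% interval 0.37 to 1.20), or 1.73-fold, and it was 0.70 to 0.95 with single arrays left out. Leukocytes express Tgfb1, so their markers are given beside it. Of 9 macrophage and myeloid markers, 9 had a positive difference, with a median of 0.62. Their summed levels, on the log2 scale, ran from 11.87 to 12.47 in Si deplete kidneys and from 11.21 to 12.10 in Si replete kidneys. This sum is mostly that of Lyz2, the brightest of the 9 (mean level 11.60), which differed by 0.33 (standard error 0.22). None of the 9 passed over all probe sets (limma), where 0.204% of all named genes did. At an unadjusted p under 0.05 (limma), 4 were higher, where 10.5% of all named genes were. No marker of the 9 had groups that did not overlap, beside 11.9% of all named genes. Among the 9, Ptprc and Csf1r were not dim, whereas Itgam and Cd68 were. Of 6 lymphocyte markers, 6 had a positive difference as well, with a median of 0.52 and summed levels of 5.97 to 7.49 and 5.90 to 6.26; 4 of the 6 were dim, among them Ms4a1, a defining marker of B cells. None of the 6 passed (limma, 2 higher at an unadjusted p under 0.05), and the groups overlapped in each. With so few markers and such shares over all genes, the lack of calls and of separated groups says little. The part of these cells in the Tgfb1 difference was not tested.

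Tgfb2 and Tgfb3 encode the other two TGF-beta isoforms. On the brighter probe set of Tgfb2 (1387172_a_at) the levels were 5.74, 7.66, 6.20 and 7.32 in Si deplete and 5.16, 4.86, 6.96 and 6.89 in Si replete kidneys. Each group held high and low kidneys, which differed by 3.81-fold in the Si deplete and 4.29-fold in the Si replete group, and the spread within diets (SD 1.02) was larger than that of 99.6% of 15115 probe sets with a mean of 4 or more, whose median SD was 0.19. Against this spread, the difference between diets of 0.76 (standard error 0.59, 95% interval -0.56 to 2.08) was small. The other probe set (1388011_a_at) was dim. It gave levels of 3.20, 4.55, 3.66 and 4.46 in Si deplete and 3.26, 3.58, 4.03 and 4.40 in Si replete kidneys, a difference of 0.15 (standard error 0.34). Both probe sets placed Si deplete replicates 2 and 4 and Si replete replicates 3 and 4 above the other kidneys of their group. Tgfb3 (1367859_at) was dim, at 4.23, 2.70, 2.59 and 3.19 in Si deplete and 3.19, 2.84, 2.97 and 3.00 in Si replete kidneys. Its difference of 0.17 (standard error 0.32) rested on Si deplete replicate 1 and was -0.18 without it.

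Bmp7, the BMP of the nephron, had almost the same levels in both groups. They were 7.80, 8.26, 8.17 and 7.97 in Si deplete and 8.02, 8.08, 8.07 and 8.24 in Si replete kidneys, a difference of -0.05 (standard error 0.11) on its single probe set (1389403_at). The 95% interval of this difference was -0.30 to 0.20.

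Follistatin, the activin antagonist, had a pair of probe sets. On the brighter one (1387843_at) Fst had levels of 9.58, 9.21, 9.24 and 9.41 in Si deplete and 8.78, 9.19, 9.46 and 8.68 in Si replete kidneys. Si replete replicates 1 and 4 were the lowest kidneys, while replicate 2 lay just under the lowest and replicate 3 within the range of the Si deplete kidneys. The differences were 0.33 (standard error 0.17) on this probe set and 0.28 (standard error 0.18) on the other (1372750_at), and their 95% intervals of -0.06 to 0.72 and -0.13 to 0.70 both include 0. With single arrays left out they were 0.21 to 0.47 and 0.13 to 0.42, positive throughout.

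The receptor and the inhibitory Smad had lower means in the Si deplete group, by small amounts. Acvr2a, a type II receptor of activins, had levels of 6.45, 6.23, 6.45 and 6.73 in Si deplete and 6.42, 6.86, 6.75 and 6.74 in Si replete kidneys (1381220_at). The groups overlapped, and the difference was -0.23 (standard error 0.13, 95% interval -0.52 to 0.06). Smad7, which TGF-beta signalling itself induces and which blocks its receptors, had levels of 8.08, 8.29, 8.39 and 8.20 in Si deplete and 8.10, 8.30, 8.43 and 8.41 in Si replete kidneys on its brightest probe set (1368896_at). The difference was -0.07 (standard error 0.10, 95% interval -0.31 to 0.16). Its dim probe sets differed by -0.07 (1368897_at) and -0.05 (1368898_at).

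Of the 14 probe sets, 1 passed limma's moderated test at an adjusted p under 0.1 over all probe sets, that of Inhbb, where 0.151% of all probe sets passed. Only this probe set had no overlap between groups, while 9.37% of all probe sets had none. Because the genes were chosen with this contrast in view, nothing is read from these counts. No probe set of the 14 passed without Si deplete replicate 2 or without any one of Si replete replicates 1 to 4 (2 to 4 at an unadjusted p under 0.05), although the difference of Inhbb stayed at 1.24 to 1.31 in these fits. The calls of the whole array moved too. They numbered 0 without Si deplete replicate 2 or Si replete replicates 1, 2 or 3, and 14 without Si replete replicate 4, against 47 with every array. Without Si deplete replicate 3, Inhbb and Tgfb1 both passed, among 302 probe sets in all. Of the 9 genes, 6 had a positive and 3 a negative difference on their brightest probe set, with a median of 0.27, beside 0.00 over all named genes. The sign of 5 of the 14 probe sets turned with an array left out; each of these had a difference between -0.07 and 0.17.

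**Figure D2:**
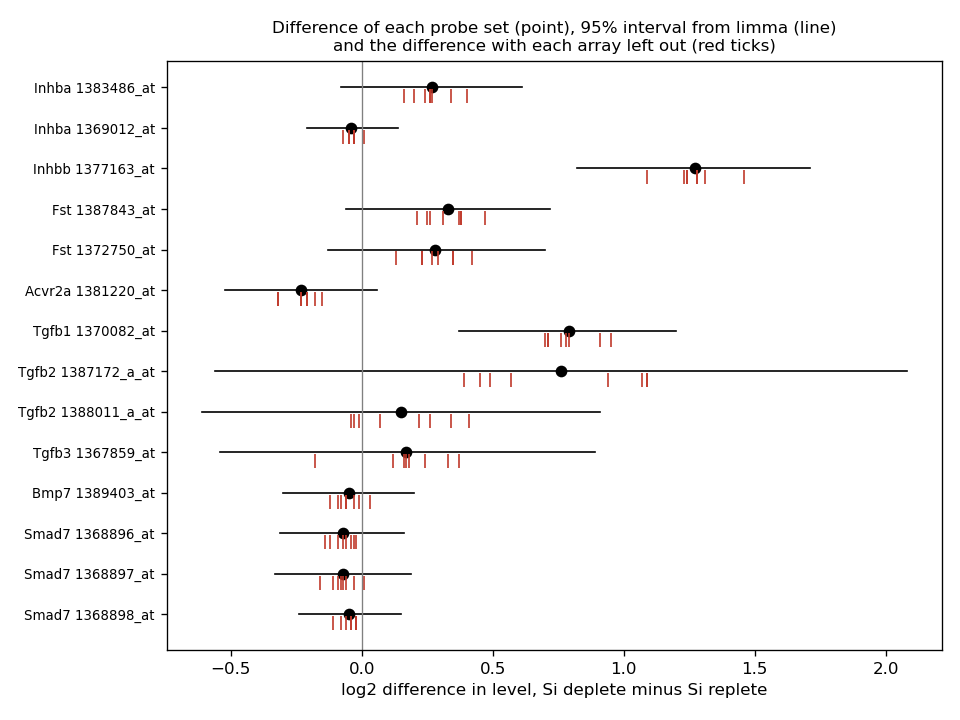
Log2 difference in level (Si deplete minus Si replete, horizontal axis) of each of the 14 probe sets, with its 95% interval from limma as a line and the differences with each of the 8 arrays left out as red ticks. The differences are largest for Inhbb, at 1.27, and Tgfb1, at 0.79, and the interval of Tgfb2 spans -0.56 to 2.08. The intervals make no allowance for the choice of the genes from these same differences.

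Joint variation of probe sets between kidneys on the same diet was not used to choose the genes. It was compared after the mean of each diet had been subtracted, over 8 arrays that share their normalization, with every rearrangement of the arrays within diets as the exact permutation test (2-sided, 576 rearrangements). The pair of Tgfb2 probe sets varied together (r = 0.91, exact p = 0.0174, adjusted p = 0.0677 over 6 pairs of probe sets of 1 gene; Spearman's rho 0.80, exact p = 0.0625, adjusted p = 0.188). With the 2 farthest arrays left out, r was 0.93. The pair of Fst probe sets did so too (r = 0.92, exact p = 0.0226, adjusted p = 0.0677; rho 0.90, exact p = 0.0243, adjusted p = 0.146), with r = 0.81 without the 2 farthest arrays. By Pearson's r, the kidney-to-kidney differences in Tgfb2 and Fst were thus similar on both probe sets of each gene. The rank correlations did not pass after adjustment, and probe set 1388011_a_at of Tgfb2 was dim. For Inhba (r = 0.19, exact p = 0.799) and for the 3 pairs of Smad7 probe sets (r = -0.35 to 0.61, exact p of 0.170 to 0.509), no common variation was detectable.

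**Figure D3:**
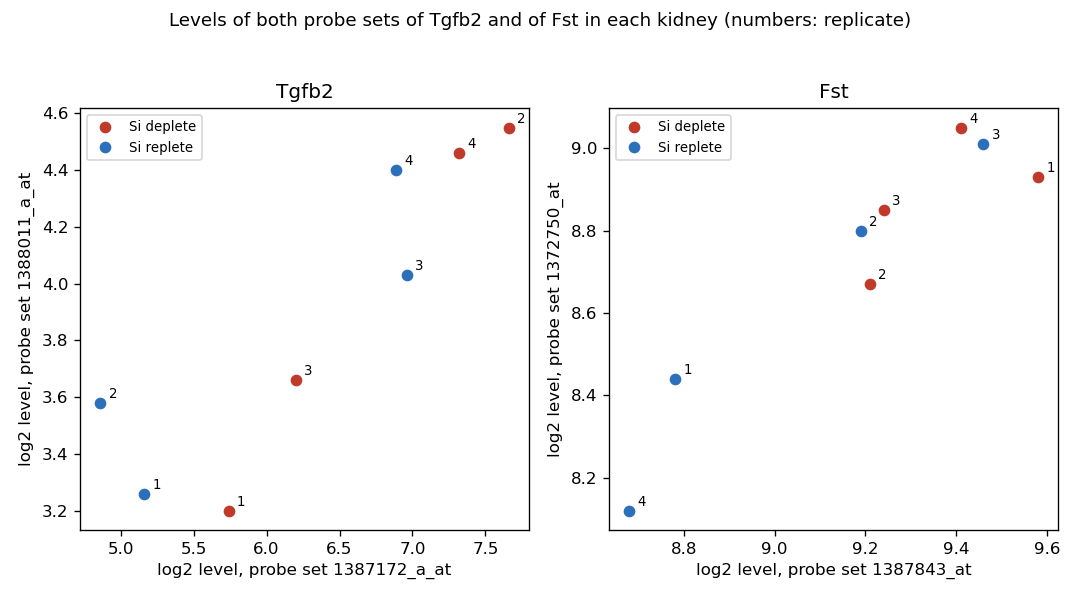
Log2 level on one probe set against the other for Tgfb2 (left) and Fst (right), 1 point per kidney, numbered by replicate and coloured by diet. The probe sets order the kidneys similarly, and for Tgfb2 both diets hold high and low kidneys.

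Between different genes of the set, no common pattern was found. Over 36 pairs of the 9 genes, r ranged from -0.85 (Tgfb3 with Bmp7) to 0.78 (Inhba with Tgfb1), 18 pairs were above 0 and the median was -0.01. By the exact permutation test, 3 pairs had a p under 0.05 and none passed after adjustment (lowest adjusted p = 0.516). Compared with the means of 12 marker lists, 7 of 108 relations had an exact p under 0.05 and none passed (lowest adjusted p = 0.188). The closest was Bmp7 with the proximal tubule markers (r = 0.93, exact p = 0.00521, adjusted p = 0.281; rho 0.90, exact p = 0.0243, adjusted p = 0.525; r = 0.87 without the 2 farthest arrays). The smallest p was that of Tgfb3 with the tubule injury markers (r = 0.77, exact p = 0.00174, adjusted p = 0.188; rho 1.00, exact p = 0.00347, adjusted p = 0.375; r = 0.72 without the 2 farthest arrays). Other genes with a mean of 4 or more were compared with each activin subunit, 9488 for Inhbb and 9489 for the dim Inhba. Those closest to Inhbb within diets over the 8 arrays were Tmem63b, Psmd11 and Gga3 (r = 0.98 each). For Inhba they were Crlf3 (r = 0.99), Rars2 (0.97) and Lims2 (0.95). With so many genes and 8 arrays, such values describe these arrays only.

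The rest of the pathway was described with 7 lists of 108 other genes, of which 91 were measured, each by its brightest probe set. None of the 91 passed at an adjusted p under 0.1 (limma), where 0.204% of all named genes did. At an unadjusted p under 0.05, 17 were higher and 6 were lower, which is 25.3% of the 91. Over all named genes, 10.5% were higher and 7.95% lower by the same rule. The groups did not overlap in 15 of the 91, 11 higher and 4 lower, beside 11.9% of all named genes. The median difference of the 91 was 0.00, as over all genes. Without Si deplete replicate 3, 6 of the 91 passed and were higher, namely Col1a1, Fn1, Gdf15, Ltbp4, Tgfb1i1 and Tgif1. In that fit 1.39% of all named genes passed (197 of 14217). With any other single array left out none passed (limma, 16 to 21 higher and 4 to 7 lower at an unadjusted p under 0.05).

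Of 16 other ligands, 12 were dim, and the median difference was -0.04. Gdf15, a divergent family member that stressed epithelia secrete, had levels of 5.75, 6.35, 5.23 and 6.67 in Si deplete and 4.95, 4.93, 4.50 and 4.80 in Si replete kidneys. These groups did not overlap, at a difference of 1.20 (standard error 0.28, limma adjusted p = 0.164). Bmp4, expressed by stromal cells, differed by -0.20 (standard error 0.11, adjusted p = 0.425) and Gdf10, which was dim, by 0.24 (standard error 0.13, adjusted p = 0.423). Inha, the alpha subunit that turns beta subunits into inhibins, was dim, with a difference of 0.09 (standard error 0.18).

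Of 14 other receptors and co-receptors the median difference was -0.07. Acvr1c, the type I receptor ALK7, differed by -0.78 (standard error 0.26, limma adjusted p = 0.239), its levels lying between 3.52 and 4.76 in Si deplete kidneys and between 4.55 and 5.20 in Si replete kidneys. Acvrl1, the type I receptor of endothelial cells, differed by 0.45 (standard error 0.16, adjusted p = 0.266) and Acvr2b, the other type II receptor of activins, by 0.32 (standard error 0.17, adjusted p = 0.406). In each of these, at least 1 kidney of one group lay within the range of the other.

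Of 11 other extracellular antagonists the median difference was -0.09. Fstl3, a relative of follistatin that also binds activins, had levels of 5.44, 5.17, 4.79 and 5.08 in Si deplete and 4.71, 4.12, 4.47 and 4.66 in Si replete kidneys. The groups did not overlap, and the difference was 0.63 (standard error 0.17, limma adjusted p = 0.183), or 0.38 (standard error 0.18) on its dim probe set. Chrd, the BMP antagonist chordin, differed by 0.70 (standard error 0.33, adjusted p = 0.358), and by 0.39 without Si deplete replicate 1. Bmper, another BMP binder, was dim and differed by -0.23 (standard error 0.09, adjusted p = 0.304), with no overlap between the groups.

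TGF-beta is secreted in a latent form that other proteins store and release. Of 8 genes of this group the median difference was 0.05, and 2 had groups that did not overlap, beside 11.9% of all named genes. Ltbp4, a latent TGF-beta binding protein of the matrix, had levels of 8.84, 9.24, 8.44 and 9.13 in Si deplete and 8.09, 7.55, 8.20 and 7.85 in Si replete kidneys, a difference of 0.99 (standard error 0.20, limma adjusted p = 0.136). Lrrc32, which holds latent TGF-beta on the cell surface, had levels of 6.01, 5.54, 5.94 and 5.92 against 5.24, 5.13, 5.32 and 4.77, a difference of 0.74 (standard error 0.14, adjusted p = 0.134). Itgav, the alpha V integrin that releases TGF-beta from its latent form, differed by -0.13 (standard error 0.17, adjusted p = 0.739) where its signal was brightest, but by 0.39 and 0.52 on its remaining probe sets, so its probe sets disagreed.

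Of 17 Smads and Smad regulators the median difference was 0.07. Tgif1, a repressor that binds Smads, had levels of 11.33, 10.59, 10.30 and 10.60 in Si deplete and 9.33, 9.37, 9.56 and 9.96 in Si replete kidneys, a difference of 1.15 (standard error 0.22, limma adjusted p = 0.134). Smad3, the receptor-activated Smad of TGF-beta and activin, had levels of 9.15, 8.71, 8.79 and 8.83 against 8.22, 8.25, 8.47 and 8.52. Its groups did not overlap either, at a difference of 0.51 (standard error 0.12, adjusted p = 0.163), while its other probe set was dim and differed by 0.04. Zfyve9, which presents Smads to the receptor, differed by -0.32 (standard error 0.10, adjusted p = 0.227), also without overlap. Smad4, the partner shared by all these pathways, differed by -0.05 (standard error 0.08).

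The list with the highest median was that of TGF-beta and activin target genes, at 0.41 over 15 genes, and at 0.41 also without Si deplete replicate 1. None passed, and 7 were higher and 1 was lower at an unadjusted p under 0.05 (limma). By the same rule, 10.5% of all named genes were higher and 7.95% were lower. Fn1, the matrix protein fibronectin, had levels of 8.93, 9.08, 8.92 and 9.48 in Si deplete and 8.50, 8.23, 8.35 and 8.45 in Si replete kidneys, a difference of 0.72 (standard error 0.13, adjusted p = 0.126). Col1a1, a chain of type I collagen, had levels of 6.99, 8.36, 6.51 and 8.12 against 6.10, 5.01, 5.52 and 6.13, a difference of 1.80 (standard error 0.42, adjusted p = 0.166), or 0.71 (standard error 0.26) on its other probe set. Tgif2, a dim relative of Tgif1, differed by 0.53 (standard error 0.16, adjusted p = 0.212). The list did not move as one. Ccn2, connective tissue growth factor, differed by -0.19 (standard error 0.15), Tgfbi by -0.63 (standard error 0.27) and Acta2, smooth muscle actin, by 0.16 (standard error 0.19).

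Fibroblasts and mural cells express several of these targets. Of 8 of their markers, 6 had a positive and 2 a negative difference, with a median of 0.22. Their summed log2 levels lay between 11.60 and 12.79 in Si deplete kidneys and between 11.56 and 12.02 in Si replete kidneys. This sum is mostly that of Dcn, the brightest of the 8 markers (mean level 11.28). None passed, and the 2 higher at an unadjusted p under 0.05 (limma) were Col3a1, a chain of type III collagen, at 1.48, and Pdgfrb, a receptor of mural cells and fibroblasts, at 0.75. Pdgfra and Dcn, other defining markers of fibroblasts, differed by 0.16 and 0.17 and Lum by -0.25, and only Cspg4 of the 8 was dim. Of 6 tubule injury markers, 5 had a positive difference and groups that did not overlap, with a median of 1.06 and summed levels of 14.33 to 15.47 and 13.18 to 13.91; Krt20 alone was dim, and none passed (limma, 5 higher at an unadjusted p under 0.05). Over all named genes, 11.9% had groups that did not overlap and 10.5% were higher by that rule. The part of these cells and of tubule injury in the values of the pathway genes was not tested.

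**Figure D4:**
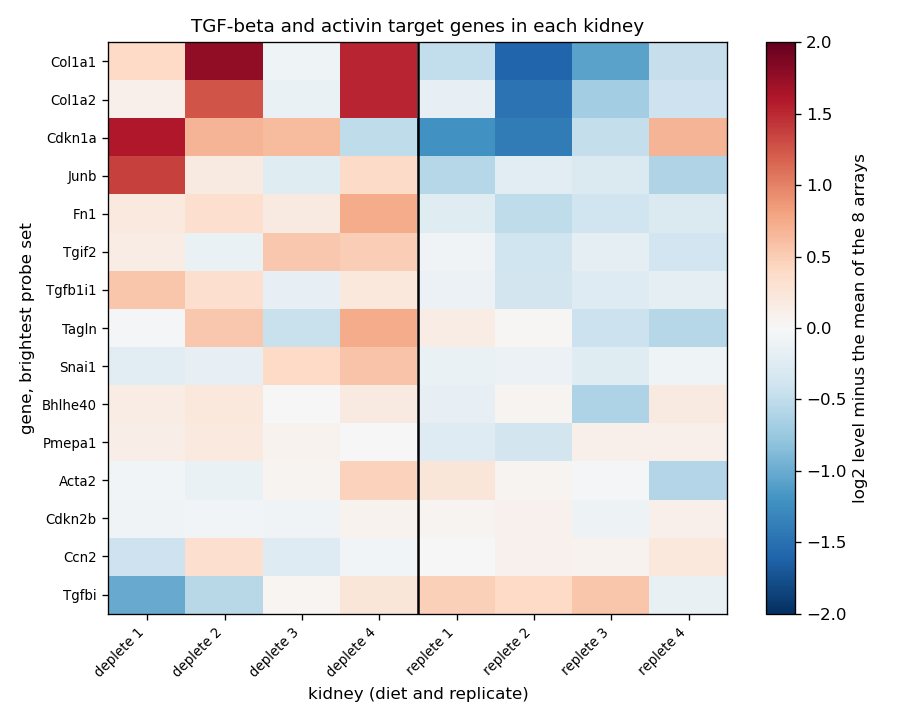
Log2 level minus the mean of the 8 arrays for each of 15 TGF-beta and activin target genes (rows, ordered by their difference) in each kidney (columns, Si deplete left of the line). Col1a1 is highest in Si deplete replicates 2 and 4, at 8.36 and 8.12, and Tgfbi at the bottom runs the other way, with a difference of -0.63.

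The 10 BMP target genes had a median difference of -0.15. Id4, an inhibitor of helix-loop-helix factors, had levels of 10.26, 10.59, 11.01 and 11.42 in Si deplete and 11.72, 11.67, 11.80 and 11.48 in Si replete kidneys. The groups did not overlap, at a difference of -0.85 (standard error 0.22, limma adjusted p = 0.180), and its other probe sets differed by -0.98, -0.79 and -1.0. Hey1, a transcriptional repressor, differed by -0.49 (standard error 0.20, adjusted p = 0.295), again without overlap, and by -0.30 without Si replete replicate 1. Tsc22d1, which TGF-beta also induces, differed by 0.63 (standard error 0.15, adjusted p = 0.168) where its signal was brightest, while its remaining probe sets differed by 0.04, -0.03 and -0.22. The classical targets Id1, Id2 and Id3 differed by 0.13, -0.23 and 0.39, and none of the 10 passed (limma, 1 higher and 2 lower at an unadjusted p under 0.05). Over all named genes, 10.5% were higher and 7.95% lower by that rule, and 11.9% had groups that did not overlap.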

How the data were processed

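Gene expression was measured in the left kidney of 4 rats of each diet on Affymetrix Rat Genome arrays. The authors deposited log2 levels per probe set, computed with gcRMA and m-estimator summaries of the probes (GCRMA 2.36.0 in the submitters' processing notes). Background correction and normalization were taken as deposited, and probe-level signal was not analysed here. After 57 control probe sets were left out, 31042 were compared by limma 3.58.1 in R 4.3.3 (lmFit and eBayes, Si deplete minus Si replete, no covariate), with Benjamini-Hochberg adjustment over all of them and a threshold of 0.1, as in the study's methods. The annotation gave 1 symbol for 20826 probe sets. Symbols of 20758 were matched by Entrez ID to RefSeq (GRCr8), and 0 differed. Promoter windows came from the same RefSeq assembly.

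The genes described and the pathway and marker lists were chosen with earlier results of these data known. Named genes were the 10 above, the 3 with the smallest p of each pathway list, markers where their list is described, and the 3 genes closest to Inhba and Inhbb. Other genes named beside them, such as Inha, Smad4, Ccn2, Tgfbi, Acta2 and Id1 to Id3, were chosen after their values were seen. The highest correlation between arrays was 0.9961, and none was counted as a repeat of another. The number of arrays limits the precision. The alternatives tried were limma with a trend, with a robust prior or with array weights, array medians subtracted, quantile normalization, dim probe sets removed, the replicate number as a block, single arrays left out, a threshold of 0.05, and averaging over probe sets per gene. The code was tested on simulated data.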

Additional observations from a re-analysis of the deposited data

Results flagged for a closer look

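In 2 of 70 groups of 4 kidneys examined, 1 kidney lay far from the others of its group by Dixon's test at its 95% limit, which chance exceeds in about 1 of 20 groups. For Acvrl1, Si replete replicate 1 had a level of 6.80, against 6.30 to 6.37 in the other Si replete kidneys, and the difference between diets was 0.56 (standard error 0.15, limma adjusted p = 0.291) without it. For the dim Bmper, Si replete replicate 2 had a level of 2.33, against 2.00 to 2.05, and the difference was -0.16 (standard error 0.08, limma adjusted p = 0.523) without it. None of the 14 probe sets of the activin, TGF-beta and BMP set had such a kidney.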

How the results depend on the processing

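All alternatives were planned. Of the 14 probe sets, 1 passed over all 31042 (Inhbb, limma adjusted p = 0.0876), and so it was with limma's trend, robust prior or array weights, with array medians subtracted, quantile normalization and dim probe sets left out (adjusted p of 0.0694 to 0.0942 for Inhbb). The count was 0 at a threshold of 0.05 (limma, 2 at an unadjusted p under 0.05), and 0 to 2 with single arrays left out, with the difference of Inhbb at 1.09 to 1.46. With the replicate block it was 0 (Inhbb adjusted p = 0.109; limma, 2 at an unadjusted p under 0.05). The block gave 0 calls among the 91 other pathway genes, while calls over all probe sets went from 47 to 104. The replicate numbers were not read as pairs, since the labels tie no array to a day. Deviations of same-numbered arrays correlated at 0.0883, 0.0904, 0.0787 and -0.088. Of 8 arrays, 4 matched their own number best among the 4 arrays of the other group. These values do not settle whether the numbers pair the kidneys. The 91 other pathway genes had 0 to 6 higher and 0 lower calls with single arrays left out, and 0 in each of the other settings run (limma, 17 higher and 6 lower at an unadjusted p under 0.05 in the fit reported, 17 and 5 with the block). The difference of Itgav turned to 0.26 with the mean of its probe sets, since its probe sets disagree. The median r over pairs of the 9 genes was -0.15 to 0.11 with single arrays left out and -0.05 with array medians subtracted, which moved the median difference over all probe sets by -0.06.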
